A study of Mus musculus with 15 samples.

Results

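Integrins are heterodimeric receptors of the cell surface that fasten cells to the surrounding matrix and signal through adaptor proteins at their cytoplasmic tails. Each receptor pairs an alpha subunit, which largely sets the ligand, with a beta subunit, which carries most of the contacts to the actin cytoskeleton. Itga2 encodes the alpha subunit of the collagen receptor alpha2beta1, and 10 integrin subunit genes around it were followed here, among 43432 gene identifiers in the count table. They were taken by name, and Itga2 was selected on its higher count with joint agonists of the retinoic acid receptor (RAR) and the retinoid X receptor (RXR). That contrast is therefore described without a test for the members.

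The cells were 266-6, a line from a mouse pancreatic acinar tumour, and all groups are treatments of this 1 line. The treatments were AM580, which activates RARα selectively, CD3254, which activates RXR, the pair of AM580 and CD3254, 9-cis retinoic acid (a ligand of both receptor families) and the vehicle DMSO, with 3 libraries per treatment and 15 in all. RAR and RXR bind DNA as a heterodimer, and the series asks how their ligands act on each other across the genome. All cells grew in medium with 10% serum and spent 24 h in stripped medium before 24 h with ligand. The labels give neither concentrations nor whether replicates were separate cultures, so a p-value measures the spread between these libraries, which may be technical.

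Reads on genes numbered from 28501170 to 46801058 in 14 libraries. Replicate 3 of 9-cis retinoic acid was shallower, with 14600962, and 62.99% of its reads fell on no gene. The first principal component parted 5 libraries, namely replicate 1 of AM580, CD3254, 9-cis retinoic acid and DMSO and replicate 2 of the joint treatment, from the other 10. The labels name no batch that matches this. Summed over 15 low-oxygen genes, the level was between 9500 and 14000 CPM (counts scaled to a common library size) in the 5-library set, against 1580 to 2540 CPM in the 10-library set. Fits are therefore given without and with this set as a term. Acinar enzymes marked the line, with Ctrb1 at a mean of 5210 CPM and Cpa1 at 556 CPM over the 15 libraries, while Amy2b, for an amylase, was at 0.0645 CPM. Summed over its list, the level of 6 immune markers was 4.45 to 24.0 CPM over the libraries, of which Cd68 averaged 8.42 CPM and Ptprc 0.0413 CPM. The 4 endothelial markers summed to 3.14 to 8.89 CPM, with Tek at 3.36 CPM and Cdh5 at 0.0156 CPM. The 7 endocrine markers summed to 170 to 448 CPM, nearly all from Chga at 299 CPM, and Ins1 was at 0 in every library. The pericyte and fibroblast marker Pdgfrb averaged 199 CPM and Col1a1 0.842 CPM. Markers of ductal and progenitor cells, 10 in number, summed to 145 to 369 CPM over the libraries.

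On GRCm38, the assembly named mm10, Itga2 (ENSMUSG00000015533) lies on chromosome 13 from 114833081 to 114932100, on the minus strand. Itga1 (ENSMUSG00000042284) encodes the alpha subunit of another collagen receptor with beta1. It lies next to Itga2 on the same strand, from 114953096 to 115101964, with 20995 bases between them. Itga3 (ENSMUSG00000001507) and Itgb4 (ENSMUSG00000020758) are on chromosome 11, at 95044474 to 95076801 and 115974709 to 116008412. Itga5 (ENSMUSG00000000555) is on chromosome 15, at 103344286 to 103366763. Chromosome 2 holds Itga6 (ENSMUSG00000027111, 71745616 to 71858416), Itgav (ENSMUSG00000027087, 83724397 to 83806916) and Itgb6 (ENSMUSG00000026971, 60598292 to 60722643). Itgb1 (ENSMUSG00000025809) is on chromosome 8, at 128685654 to 128733200, and Itgb5 (ENSMUSG00000022817) on chromosome 16, at 33829665 to 33949338. All 10 are protein-coding, and reads were counted over whole genes. Some exon bases are shared with other annotated genes: 685 of Itga1 with Gm49395, 634 of Itgav with Gm13684 and 537 of Itgb4 with B230344G16Rik, the last 2 on the opposite strand. Gm49395 is not among the identifiers counted, so the counting could not set reads aside as shared between it and Itga1. Whether the counting used strand is not given in the sources used here. Reads in the shared bases of Itgav and Itgb4 cannot be assigned to 1 gene.

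The start regions of the neighbours Itga2 and Itga1 are shown because the pair shares a locus and a partner subunit but differed in level across treatments. Each window runs from 250 bases before to 50 bases after the transcript start, written 5′ to 3′ on the gene's strand, from RefSeq on GRCm38.p6. Capitals mark the GC box GGGCGG, searched on both strands.
Itga2, chr13:114932051-114932350, minus strand: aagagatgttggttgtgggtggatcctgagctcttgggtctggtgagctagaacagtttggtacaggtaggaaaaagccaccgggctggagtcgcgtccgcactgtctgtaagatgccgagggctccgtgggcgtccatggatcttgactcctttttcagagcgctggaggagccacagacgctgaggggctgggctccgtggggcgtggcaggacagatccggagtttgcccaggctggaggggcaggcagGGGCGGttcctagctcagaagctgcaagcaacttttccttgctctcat
Itga1, chr13:115101915-115102214, minus strand: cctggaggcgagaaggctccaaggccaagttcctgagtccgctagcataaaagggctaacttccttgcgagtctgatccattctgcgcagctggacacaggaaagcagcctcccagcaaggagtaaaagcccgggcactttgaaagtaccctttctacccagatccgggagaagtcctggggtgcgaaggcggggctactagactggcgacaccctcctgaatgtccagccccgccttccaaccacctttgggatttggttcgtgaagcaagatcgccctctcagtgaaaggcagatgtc
The Itga2 window has 59.3% G and C and a single GGGCGG, whose first base is at +3 from the transcript start. The Itga1 window has 56.7% G and C and no GGGCGG, a motif found in 35.7% of 32851 RefSeq promoter windows of this length. Neither window holds the nuclear receptor half-sites AGGTCA (found in 16.3% of all windows), AGTTCA (in 14%), GGGTCA (in 13.7%) or GGTTCA (in 10.4%) on either strand, and at least 1 of these occurs in 43.7% of windows. A direct repeat of these half-sites spaced by 1, 2 or 5 bases, the arrangements RAR and RXR are known to bind, was found in 0.222%, 0.268% and 0.0974% of all windows and in none of those of the 8 members with an entry. Single half-sites were matched in windows of Itgb6 (AGTTCA), Itgb1 (GGTTCA), Itgb5 (GGGTCA) and an alternative start of Itga3 (GGGTCA). These matches describe letters in short windows only.

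Itga2 was the member whose level differed most between treatments. The gene was selected for its higher level in the joint treatment, so this place among the members follows from that choice. Its level was 14.1, 10.8 and 10.4 CPM in the AM580 libraries, replicates 1 to 3. With CD3254 it was 10.9, 2.48 and 2.51 CPM. Under AM580 and CD3254 together it was 16.1, 40.7 and 43.4 CPM. The joint libraries all stood above every AM580, CD3254 and DMSO library. With 9-cis retinoic acid it was 19.6, 8.60 and 28.7 CPM, and in DMSO it was 2.71, 0.876 and 1.89 CPM. In reads, these levels rest on 29 to 107 in DMSO and up to 1738 in the joint treatment. The AM580 and 9-cis retinoic acid libraries lay above all DMSO libraries, whereas CD3254 overlapped DMSO through its replicates 2 and 3. In bulk RNA, more cells with the transcript and more transcript per cell cannot be told apart.

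**Figure D1:**
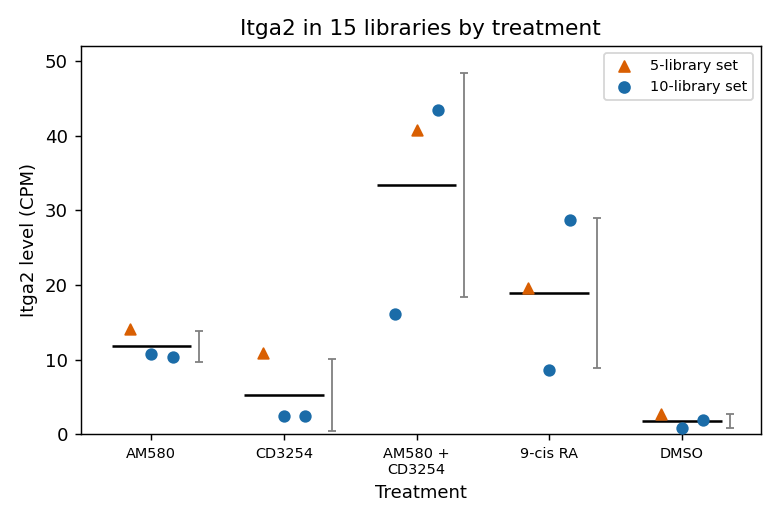
Itga2 level in CPM (linear axis from 0) for each library by treatment, with the mean as a bar and 1 SD beside it (n = 3). Triangles are the 5-library set and circles the 10-library set. The joint treatment spans 16.1 to 43.4 CPM, and DMSO lies at or below 2.71 CPM.

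For AM580, which asks what RARα activation alone did, Itga2 averaged 11.8 ± 2.04 CPM, against 1.82 ± 0.919 CPM in DMSO (SD, n = 3 each). The fitted log2 change was 2.68 ± 0.66 (SE), a 6.42-fold difference with a 95% interval of 1.27 to 4.10 on the log2 scale. In edgeR's quasi-likelihood test, adjusted over 16736 genes by the Benjamini-Hochberg method (FDR, threshold 0.05), it did not pass (FDR = 1.00), and 0% of all genes did, although 204 genes had an unadjusted p under 0.05. With the library set term the change was 2.75 ± 0.53 (edgeR FDR = 0.282), and 0.0299% of genes passed. DESeq2 gave 2.69 with an adjusted p of 0.0173, and 0.0697% of the genes it tested passed, or 0.118% with the set term. Non-overlap in this direction was met by 2.19% of genes tested. The difference appeared in both library sets, at 14.1 against 2.71 CPM in the 5-library set and at means of 10.6 against 1.38 CPM in the 10-library set. The DMSO libraries also entered the contrast on which Itga2 was picked, so its comparisons with DMSO are not independent of that choice.

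For 9-cis retinoic acid, Itga2 averaged 19.0 ± 10.1 CPM, against 1.82 ± 0.919 CPM in DMSO (SD, n = 3 each). This 10.3-fold difference was a log2 change of 3.37 ± 0.67, with a 95% interval of 1.92 to 4.82 (edgeR FDR = 0.550), in a contrast where 0% of genes passed. With the set term it was 3.44 ± 0.55 (edgeR FDR = 0.0577), where 0.0299% of genes passed. Adding the replicate number as a block to the set term gave 3.39 with an edgeR FDR of 0.0330, where 0.0299% of genes passed, and DESeq2 without the set term gave 3.37 with an adjusted p of 1.6e-04, where 0.0602% of genes passed, or 0.134% with the set term. The groups did not overlap, which 2.15% of genes met in this direction. Replicate 3, the shallow library with 62.99% of reads on no gene, was the highest of the group, and without it the log2 change was 2.95 (edgeR FDR = 1.00), or 2.74 with the set term (edgeR FDR = 0.123).

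CD3254 alone gave a smaller fitted difference for Itga2, which turned on 1 library. The mean was 5.30 ± 4.85 CPM with CD3254, against 1.82 ± 0.919 CPM in DMSO (SD, n = 3 each), a log2 change of 1.53 ± 0.64 with a 95% interval of 0.16 to 2.90 (edgeR FDR = 1.00), and 0% of all genes passed. Groups that did not overlap in this direction were seen for 2.36% of genes, and Itga2 was not among them. With the set term it was 1.37 ± 0.53 (edgeR FDR = 1.00), and 0.0239% of genes passed. Without CD3254 replicate 1, at 10.9 CPM, the change was 0.43 ± 0.54. That library is in the 5-library set, whose DMSO library had 2.71 CPM. In the 10-library set CD3254 averaged 2.49 CPM, against 1.38 CPM in DMSO.

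The joint treatment is given for Itga2 as a description, since the gene was chosen there. It averaged 33.4 ± 15.1 CPM with AM580 and CD3254, against 1.82 ± 0.919 CPM in DMSO (SD, n = 3 each), an 18.2-fold difference and a fitted log2 change of 4.19 ± 0.70. In that contrast 0.0179% of genes passed in edgeR, 0.125% with the set term and 0.113% in DESeq2, and 2.39% had joint libraries all above DMSO. The joint level was 2.84-fold that of AM580 alone (log2 1.50 ± 0.62) and 6.32-fold that of CD3254 alone (log2 2.66 ± 0.65, or 3.75 without CD3254 replicate 1). All joint libraries stood above all AM580 libraries, as for 2.71% of genes, and above all CD3254 libraries, as for 2.32%. With 9-cis retinoic acid the level was 0.566-fold that of the joint treatment (log2 -0.82 ± 0.61), and these groups overlapped. Without replicate 3 of 9-cis retinoic acid and with the set term that value was -1.52. The joint libraries differed among themselves by more than 2-fold, replicate 1 being the low one. On the log2 scale the joint change departed from the sum of the single-agonist changes by -0.02 ± 0.82. That SE is wide enough to hold departures in either direction. The value also turned on single CD3254 libraries. Without CD3254 replicate 1 the joint change was 4.19, above the sum of 2.67 with AM580 and 0.43 with CD3254. Without CD3254 replicate 2 or 3 it was again 4.19, below the sum of 2.67 and 1.86. The departure was not tested in these settings, so no conclusion on additivity is drawn.

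Itga1, the adjacent collagen receptor gene, varied far less. Its level was 2.88, 4.83 and 4.73 CPM with AM580. With CD3254 it was 4.93, 3.21 and 3.31 CPM. The joint treatment gave 3.73, 6.84 and 6.47 CPM. These ranges overlap that of DMSO, where it was 3.85, 1.39 and 3.12 CPM, and so does that of 9-cis retinoic acid, at 4.99, 3.75 and 3.25 CPM. Fitted log2 changes against DMSO were 0.57 with AM580 (95% interval -0.26 to 1.41), 0.45 with CD3254 (-0.38 to 1.29) and 0.52 with 9-cis retinoic acid (-0.32 to 1.36), each with an edgeR FDR of 1.00. The joint treatment averaged 5.68 ± 1.70 CPM, against 2.79 ± 1.26 CPM in DMSO (SD, n = 3 each), a log2 difference of 1.03 ± 0.39 given as a description. Within the 5-library set AM580 was below DMSO, at 2.88 against 3.85 CPM, and within the 10-library set above it, at 4.78 against 2.25 CPM.

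Per kilobase, Itga2 exceeded Itga1 in every ligand-treated library, while in DMSO the order of the pair depended on the gene length used. The ratio of levels per kilobase was 12.8, 5.85 and 5.72 with AM580 and 5.76, 2.01 and 1.98 with CD3254. It was 11.2, 15.5 and 17.5 with both agonists and 10.3, 5.99 and 23.1 with 9-cis retinoic acid. In DMSO it was 1.84, 1.64 and 1.58, below every ligand-treated library. These values use the union of a gene's exons as its length. With the longest transcript instead, a setting added after seeing the data, the ratio was 1.17 to 13.6 in the ligand-treated libraries, and 1.09, 0.973 and 0.935 in DMSO, so that Itga1 was the higher gene in DMSO replicates 2 and 3. Because Itga2 was chosen for its change, this ratio is a description.

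**Figure D2:**
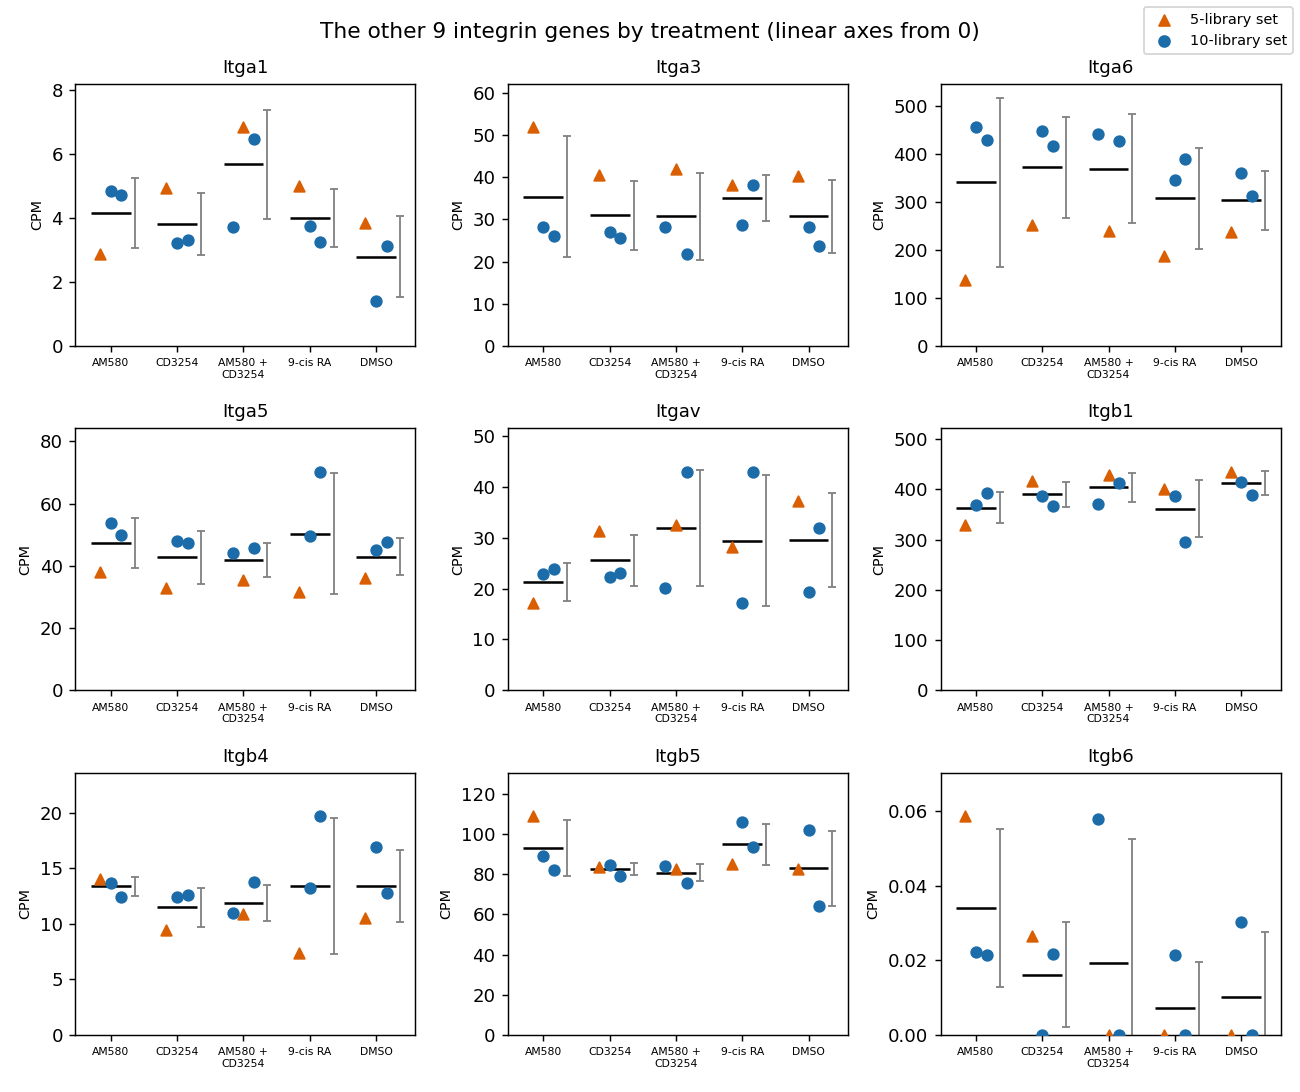
Levels in CPM of the other 9 integrin genes by treatment (linear axes from 0, each with its own scale), with 1 point per library, the mean as a bar and 1 SD beside it (n = 3). Triangles are the 5-library set and circles the 10-library set. For Itga6 the triangle is the lowest point of each treatment, from 138 to 252 CPM, and Itgb6 stays at or below 0.0587 CPM.

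The other collagen, laminin and fibronectin receptor subunits gave no call with any ligand. Over the 6 contrasts other than joint treatment against DMSO, 0 of the 8 measured members beside Itga2 passed in edgeR without or with the set term, 0 had an unadjusted p under 0.05 in either fit, and 0 passed in DESeq2. At an unadjusted p under 0.05 the background was 76 to 243 of 16736 genes without the term and 332 to 940 with it. With 8 genes, 0 beside such shares is not a result about the members. For adjusted calls the background was as low as among the members. Without the term edgeR called 0% of all genes in each of these contrasts, and with it 0.0120% for the joint treatment against AM580, 0.0299% for it against CD3254 and 0.00598% where 9-cis retinoic acid was set against it. DESeq2 called 0.00602%, 0.0481% and 0% in those contrasts, and 0% for CD3254 against DMSO. Itga3 and Itga6 encode laminin receptor subunits, of alpha3beta1 and of alpha6beta1 and alpha6beta4. Itga3 averaged 35.4 ± 14.3 CPM with AM580, 31.0 ± 8.22 CPM with CD3254, 30.7 ± 10.3 CPM with both, 35.0 ± 5.45 CPM with 9-cis retinoic acid and 30.7 ± 8.71 CPM in DMSO (SD, n = 3 each). Itga6 averaged 341 ± 176, 372 ± 106, 370 ± 113, 308 ± 106 and 304 ± 61.7 CPM in the same order of treatments. The SD within each treatment was as large as or larger than the differences between most means. The 95% intervals of the log2 change with AM580 ran from -0.49 to 0.90 for Itga3 and from -0.73 to 1.06 for Itga6, and both include 0. With the set term they were narrower, at -0.19 to 0.53 for Itga3 and -0.39 to 0.44 for Itga6, and again include 0.

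Itga5 and Itgav encode the alpha subunits of the fibronectin receptor alpha5beta1 and of the RGD-binding receptors for vitronectin and latent TGF-beta. Itga5 averaged 47.2 ± 8.12 CPM with AM580, 42.8 ± 8.55 with CD3254, 41.8 ± 5.48 with both, 50.3 ± 19.4 with 9-cis retinoic acid and 43.0 ± 6.00 in DMSO (SD, n = 3 each). Its highest library, at 70.2 CPM, was the shallow replicate 3 of 9-cis retinoic acid. Itgav was at 17.1, 22.9 and 23.9 CPM with AM580, at 20.2, 32.6 and 43.0 CPM with both agonists and at 37.3, 19.4 and 32.0 CPM in DMSO. Each of these Itgav ranges overlaps the DMSO range. AM580 against DMSO gave Itgav a log2 change of -0.47 (95% interval -1.23 to 0.28), and the joint treatment against AM580 gave 0.58 ± 0.35 (edgeR FDR = 1.00). For Itgav the departure of the joint treatment from the sum of the single changes was 0.80 ± 0.50 (edgeR FDR = 1.00), and 0 of all genes tested passed in that comparison, with 99 at an unadjusted p under 0.05.

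Itgb1, for the partner of most alpha subunits here, those of Itga1 and Itga2 among them, had the narrowest spread. It was 330, 369 and 392 CPM with AM580, 417, 387 and 366 CPM with CD3254 and 371, 428 and 413 CPM with both. It was 401, 386 and 296 CPM with 9-cis retinoic acid and 435, 415 and 388 CPM in DMSO, overlapping every ligand group. Its log2 changes against DMSO were -0.18 with AM580 (95% interval -0.51 to 0.14), -0.08 with CD3254 (-0.41 to 0.24) and -0.19 with 9-cis retinoic acid (-0.52 to 0.13). Those intervals leave out a doubling in either direction. Itgb5, a partner of alpha v, had intervals of -0.21 to 0.55, -0.39 to 0.37 and -0.19 to 0.57 in the same contrasts. With 9-cis retinoic acid Itgb5 was 85.3, 106 and 93.6 CPM, against 84.0, 82.8 and 75.9 CPM with both agonists, which did not overlap (2.35% of genes in this direction) and did not pass (edgeR FDR = 1.00). Itgb4, the partner of alpha6 in hemidesmosomes, averaged 13.4 ± 0.829 CPM with AM580, 11.5 ± 1.77 with CD3254, 11.9 ± 1.67 with both, 13.4 ± 6.15 with 9-cis retinoic acid and 13.4 ± 3.25 in DMSO. Itgb6, another epithelial partner of alpha v, had 0 to 2 reads per library in all treatments and was not tested, so no fold is given.

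**Figure D3:**
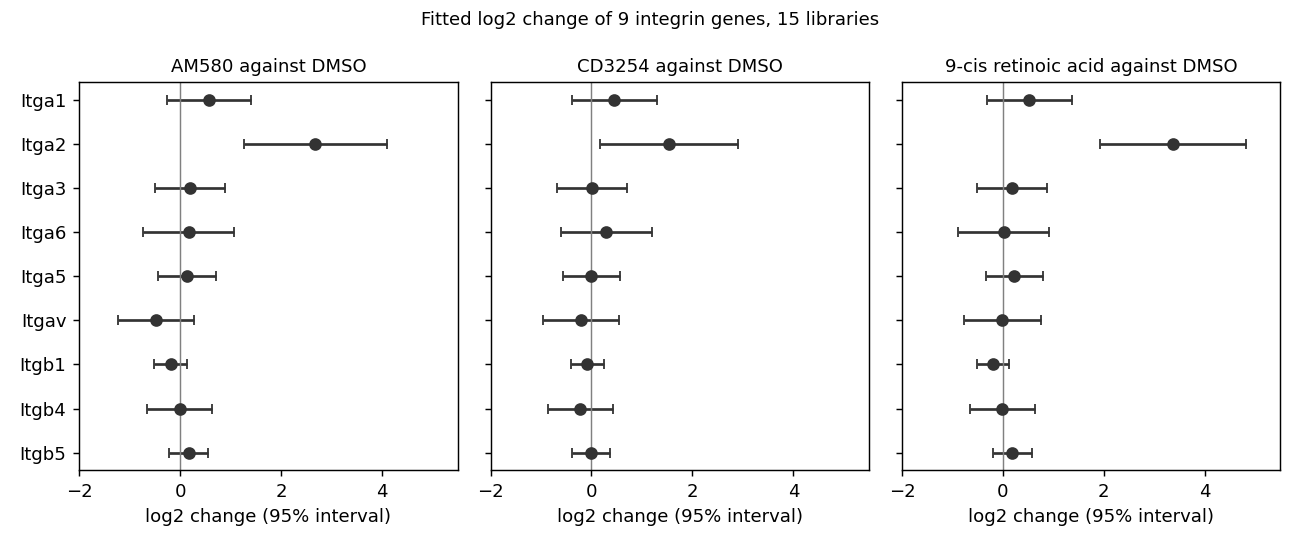
Fitted log2 change of 9 integrin genes (Itgb6 was not tested) against DMSO for 3 treatments, from edgeR without the set term. Points are estimates over 15 libraries and bars are 95% intervals. Itga2 lies at 2.68, 1.53 and 3.37, and every other interval includes 0.

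Across the measured members the direction of the fitted change was mixed. With AM580, 6 of 9 were above 0 and 3 below, with CD3254 4 above and 5 below, and with 9-cis retinoic acid 6 above and 3 below. In the joint treatment 4 were above and 5 below DMSO, with a median log2 change of 0.00.

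Levels between genes were compared per kilobase of the union of exons. The mean over 15 libraries was 94.7 CPM per kilobase for Itgb1, 37.6 for Itga6, 24.5 for Itgb5, 9.13 for Itga5 and 5.70 for Itga3. It was 2.57 for Itgav, 2.00 for Itga2, 1.81 for Itgb4, 0.220 for Itga1 and 0.00244 for Itgb6. Itgb1 exceeded Itga6, and Itgb5 exceeded Itga5, in 15 of 15 libraries, while Itga6 exceeded Itgb5 in 13 and Itga5 exceeded Itga3 in 11. The place of Itga2 differed by treatment. In the joint libraries it was at 2.26, 5.71 and 6.08 CPM per kilobase and above both Itgav (1.88 to 4.01) and Itgb4 (1.55 to 1.97) in 3 of 3. In DMSO it was at 0.380, 0.123 and 0.264 CPM per kilobase and below both Itgav (1.81 to 3.48) and Itgb4 (1.50 to 2.41) in 3 of 3. With 9-cis retinoic acid it was above each of them in 2 of 3 libraries. With the longest transcript as the length, Itgb4 (2.05) came before Itga2 (2.01) in the mean over 15 libraries, and the other places were the same. Itga2 was then above Itgav in 2 of 3 joint libraries.

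Itga6 made up most of the alpha transcripts. Of the summed level per kilobase (union of exons) of the 6 alpha subunits, Itga6 held between 42.7% and 74.5% over the 15 libraries, Itga5 between 13.1% and 21.6%, and Itga3 between 5.39% and 25.4%. Itga2 held 3.30% ± 1.93 with AM580, 1.46% ± 1.59 with CD3254, 7.77% ± 4.08 with both, 4.89% ± 2.48 with 9-cis retinoic acid and 0.525% ± 0.314 in DMSO (SD, n = 3 each). Its highest share was 11.4%, in replicate 2 of the joint treatment. With the longest transcript as the length, also added after seeing the data, that highest share was 6.89%, the DMSO shares were 0.120% to 0.490%, and Itga6 held 57.2% to 83.8% over the 15 libraries. Among the beta subunits Itgb1 held 71.3% to 82.7%, Itgb5 15.7% to 26.9% and Itgb4 0.853% to 2.76%.

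**Figure D4:**
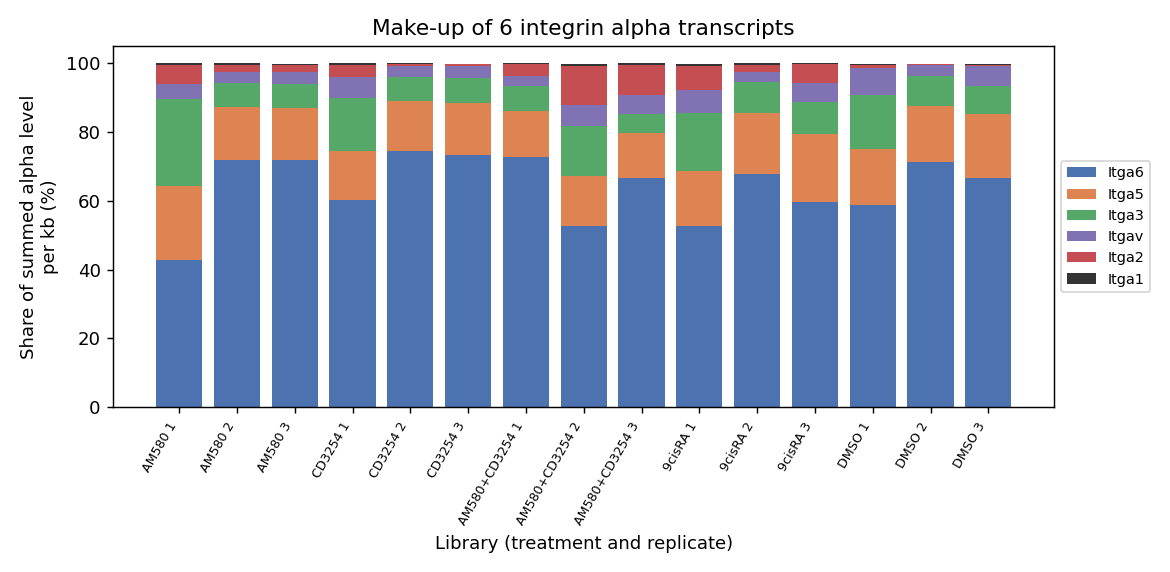
Share in percent of the summed level per kilobase (union of exons) of 6 integrin alpha transcripts, 1 stacked bar per library by treatment and replicate. Itga6 is the largest block in every library, and Itga2 reaches 11.4% in replicate 2 of the joint treatment.

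Between the library sets, which hold 1 and 2 libraries of each treatment, 3 of the 9 measured members did not overlap, beside 26.0% of all genes tested, so the share among members is close to the background. Itga6 was at 138 to 252 CPM in the 5-library set (median 238), against 312 to 456 CPM in the 10-library set (median 422). Itga5 had 31.4 to 38.1 CPM (median 35.5), against 44.2 to 70.2 CPM (median 47.8). Itga3 ran the other way, with 38.2 to 51.9 CPM (median 40.5), against 21.8 to 38.1 CPM (median 27.5). The other 6 members overlapped, among them the partner subunits Itgb1 and Itgb4 of these receptors, and Itga2 with 2.71 to 40.7 CPM (median 14.1), against 0.876 to 43.4 CPM (median 9.49). The sets were read from the same counts, so no test is given, and the part of the low-oxygen genes in these differences was not tested.

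**Figure D5:**
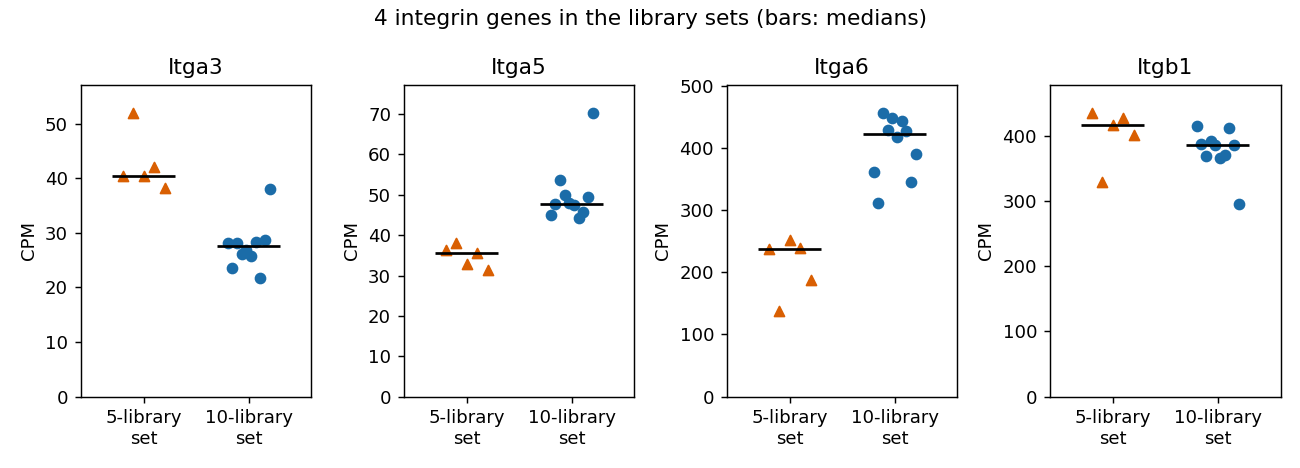
Levels in CPM (linear axes from 0) of 4 integrin genes in the 5-library set and the 10-library set, with 1 point per library and the median as a bar. Itga3 lies higher in the 5-library set, at 38.2 to 51.9 CPM against 21.8 to 38.1 CPM, Itga5 and Itga6 lie lower, and Itgb1 overlaps.

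Ligands and intracellular partners of integrins were followed in 6 lists with 97 gene symbols, of which 95 are in the table and 79 were tested. In all 7 contrasts 0 of them passed in edgeR without or with the set term, and 0 in DESeq2. Over all genes the share that passed in edgeR was 0% to 0.0179% without the term and 0.00598% to 0.125% with it. In DESeq2 without the term it was 0% to 0.113%. At an unadjusted p under 0.05 there were 0 to 1 of the 79 without the term and 0 to 5 with it. The background at that p was at least 76 of 16736 genes without the term and 332 to 940 with it. Beside such shares, these counts over 79 genes are not a result about the lists. Of other integrin subunits 13 of 17 were tested, with Itga2b at a mean of 5.29 CPM and Itga7 at 4.32 CPM leading. Their median log2 change against DMSO was 0.00 with AM580, -0.17 with CD3254, -0.10 with both agonists and -0.28 with 9-cis retinoic acid. The same median over all genes was 0.02, -0.01, 0.00 and 0.01. Collagens, the ligands of the Itga2 and Itga1 receptors, had 10 of 15 tested. The basement membrane collagens Col4a1 and Col4a2 led, at means of 105 and 41.4 CPM, and the list's median change was -0.20 with AM580, -0.28 with CD3254, 0.05 with both and 0.03 with 9-cis retinoic acid.

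Of 11 laminin chains 9 were tested, led by Lamb1 at 229 CPM and Lama5 at 140 CPM, and their median changes against DMSO lay between -0.19 with CD3254 and 0.05 with 9-cis retinoic acid. Among RGD-type ligands, 13 of the 16 in the table were tested. Vtn, for vitronectin, averaged 1280 CPM, while Fn1, for fibronectin, averaged 0.408 CPM. Of adaptors and kinases at the integrin tail 24 of 26 were tested, with Actn4, for an actin crosslinker, at 395 CPM and Tln1, for the integrin activator talin, at 260 CPM. Tln1 averaged 276 ± 29.2 CPM with AM580, 250 ± 23.8 CPM with both agonists and 253 ± 22.6 CPM in DMSO (SD, n = 3 each), within the spread of the libraries. All 10 lateral partners were tested, led by Bsg at 2030 CPM and Slc3a2 at 387 CPM.

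The neighbours of Itga2 within 500 kb were measured as well, except Gm49395, which is not among the identifiers counted. Mocs2, for a molybdenum cofactor enzyme, lies on the opposite strand (114818236 to 114832275) and ends 805 bases from the end of Itga2. It had 57.2 to 62.6 CPM in the joint treatment, against 37.2 to 44.7 CPM in DMSO. These groups do not overlap, as for 2.39% of genes tested in this direction. The log2 change of Mocs2 was 0.57 ± 0.17 and did not pass (edgeR FDR = 1.00, or 0.306 with the set term). Its mean was 47.7 ± 4.42 CPM with AM580, 42.2 ± 1.12 CPM with CD3254 and 52.2 ± 11.6 CPM with 9-cis retinoic acid. Pelo, for a ribosome rescue factor and inside the bounds of Itga1, was at 20.4 ± 2.23 CPM in the joint treatment, against 19.8 ± 3.03 CPM in DMSO. With AM580 Pelo was at 24.6 ± 1.69 CPM, with CD3254 at 19.2 ± 0.847 CPM and with 9-cis retinoic acid at 21.6 ± 2.63 CPM. All its AM580 libraries stood above all DMSO libraries, as for 2.19% of genes tested. That change did not pass without or with the set term (edgeR FDR = 0.808 with it). Fst, for the activin-binding protein follistatin, stayed at or below 2.40 CPM in every library.

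The genes whose pattern was most like that of Itga2 were ranked by Pearson r of log2 CPM over the 10-library set, among 12033 protein-coding genes. They were Pde7b (0.982), for a cyclic AMP phosphodiesterase, Enpp1 (0.980), for an ectonucleotide pyrophosphatase, Tenm1 (0.979), for a teneurin, Pitpnc1 (0.978), for a phosphatidylinositol transfer protein, and Myrip (0.957), for a linker of Rab27 to myosin. These 10 libraries hold 2 of each treatment, among them the shallow replicate 3 of 9-cis retinoic acid, and the values rank genes without a test. Enpp1 averaged 38.3 CPM with AM580, 25.1 with CD3254, 54.7 with both, 41.1 with 9-cis retinoic acid and 19.7 in DMSO, the same order of means as for Itga2. Pde7b averaged 2.75, 1.43, 4.96, 3.13 and 0.820 CPM in those treatments, and Tenm1 0.705, 0.366, 3.33, 1.52 and 0.111 CPM. Tenm1 met the limit of a mean of 1 CPM through its joint level, which had an SD of 2.18 CPM. It was near the floor in DMSO, so its order of means is no separate support. Pitpnc1 averaged 119, 99.7, 174, 140 and 85.5 CPM. Myrip did not keep the order of Itga2, with means of 13.1, 7.04, 12.1, 13.9 and 6.52 CPM. Since the genes were ranked by likeness to Itga2, a shared order of means follows in part from the ranking. Among the members, Itga1 was the most like Itga2, with r = 0.77 and rank 317, followed by Itgav at 0.51 and Itga6 at 0.41. Itgb1, the partner subunit, had r = -0.38.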

How the data were processed

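Raw read counts per Ensembl gene, as deposited by the authors, were used for 15 libraries in 5 groups. FastQC, HISAT2 2.2.1, SAMtools 1.18, HTSeq and mm10 are named per the submitters' processing notes, and the annotation release is not given in the sources used here. Of 43432 identifiers 42462 matched a symbol. Reads in 5 categories without a gene (18.06% to 28.55%, and 62.99% in 1 library) were left out. Genes kept by filterByExpr (16736) were scaled by TMM and fitted in edgeR 4.0.16 (robust quasi-likelihood, R 4.3.3, limma 3.58.1) on all libraries together. Levels are TMM-scaled CPM. DESeq2 1.42.0 was an alternative. The library set follows the first principal component (48.3% of variance) of log2 CPM (prior count 2), by its sign. It was added as a term, so p-values with it rest on a term read from the same data. The members, gene lists and library set were chosen with earlier results of these data known.

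Same-numbered libraries deviated together for AM580, CD3254 and 9-cis retinoic acid with DMSO (r from 0.28 to 0.81), which meets a rule of r over 0.1 in every pair. They did not for the joint treatment, where r with DMSO was -0.59, -0.53 and 0.59. In each of those other groups replicate 1 is in the 5-library set, whereas in the joint group it is replicate 2. The r values carry this set difference, so they cannot show whether replicates were paired. No libraries were identical. Named genes are all members, the 2 highest genes of each list, called list genes, the 5 genes most like Itga2 (mean level of 1 CPM or more), and protein-coding genes starting within 500 kb of it. Fn1, Amy2b, Cpa1 and the other marker genes were named outside this rule, after their values were seen. Only the fit with the set term was run on simulated data. Those data held no difference between the library sets, so that run does not bear on the fit without the term.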

Additional observations from a re-analysis of the deposited data

How the results depend on the processing

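In the 3 contrasts of the joint treatment other than with DMSO, where Itga2 was left untested, 0 of the other 8 members passed in any setting. At most 0.0837% of all genes passed in any setting of these contrasts. In the 3 other tested contrasts, Itga2 included, the count of members past the threshold was 0 and became 1 (Itga2) for AM580 and for 9-cis retinoic acid against DMSO under DESeq2, without the set term and, as a setting chosen after seeing the data, with it. DESeq2 called 0.0697% of the genes it tested with AM580 and 0.0602% with 9-cis retinoic acid. With the set term it called 0.118% and 0.134%. For 9-cis retinoic acid the count was also 1 with the set term and replicate block together, likewise added later (0.0299% of all genes). The count ranged from 0 to 1 when 1 library at a time was left out with the set term. It was 1 there without CD3254 replicate 1, joint replicate 3 or 9-cis retinoic acid replicate 2 (FDR 0.0191, 0.0373 and 0.0343), where 0.0350%, 0.0292% and 0.0349% of all genes passed. The replicate block alone gave Itga2 an edgeR FDR of 1.00 with AM580 and 0.483 with 9-cis retinoic acid and made 0 calls over all genes in both. The 5-library set holds replicate 2 of the joint treatment but replicate 1 of every other, and the block fits use the numbers as labelled, so a block mixes the sets there. The cause of these shifts was not tested. Other scaling, no filter on low counts, the 10-library set alone and the set term alone also gave 0 members called in those contrasts. Other scaling and no filter called 0% of all genes there. The 10-library set alone called 0.0179% with AM580, 0% with CD3254 and 0.0239% with 9-cis retinoic acid. The set term alone called 0.0299%, 0.0239% and 0.0299% in the same order.

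Over 38 settings the log2 change of Itga2 ran from 2.34 to 3.07 with AM580, 0.43 to 1.92 with CD3254, 2.74 to 3.76 with 9-cis retinoic acid and 3.72 to 4.58 in the joint treatment, each against DMSO. The median member change in the joint treatment ran from -0.05 to 0.13. Of 2394 member values 205 had the other sign, all where the main value was at most 0.26 in size, and 0 of these were of Itga2 or Itga1. Depth limits Itga2 in DMSO, with 29 to 107 reads, and Itgb6.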

Other observations

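Some integrin genes and ligands outside the members differed between the library sets more than between treatments, given here as values. The alpha subunit gene Itga7 had 6.59 to 11.2 CPM in the 5-library set, against 1.53 to 3.95 CPM in the 10-library set. Itgal, for the leukocyte alpha L subunit, had 0.623 to 1.68 CPM, against 2.49 to 7.37 CPM, while the leukocyte marker Ptprc averaged 0.0413 CPM over the 15 libraries. The laminin chain Lamb3 was at 24.2 to 37.7 CPM, against 0.989 to 11.0 CPM. Spp1, for the RGD ligand osteopontin, was at 29.4 to 45.9 CPM, against 1.62 to 10.4 CPM. Bsg, for a lateral partner of integrins, was at 2620 to 5950 CPM, against 1010 to 1450 CPM. These genes were singled out after their values were seen, and 26.0% of all genes tested had library sets that did not overlap.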
